A study of Sus scrofa with 3 samples.

Results

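The translation initiation and elongation factor genes comprised 42 genes, out of 6765 genes with a name of their own on the array. They were taken as the genes whose symbol begins with EIF and a digit, or with EEF followed by 1 or 2, in the platform's probe table, and 65 probe sets carry these symbols, of which each gene was read on its brightest (by mean log2 signal over the arrays). The RNA came from the last deciduous molar germs, with the dental lamina, of the lower jaw of Wuzhishan miniature pig embryos. Germs were pooled within 1 litter at embryonic day 40 (E40, cap stage, before a secondary dental lamina), at E50 (bell stage, with the secondary lamina beginning) and at E60 (secretory stage, with a secondary lamina), and each pool was hybridised to 1 array. The animals were untreated and of 1 breed, and neither the number nor the sex of the embryos in a pool is given in the sources used here. Because each stage is 1 pool on 1 array, there was no spread between replicates, no test was possible, and every difference below compares 3 arrays rather than the stages at large.

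Translation begins when initiation factors (eIFs) bring the small ribosomal subunit and the initiator tRNA to the capped end of an mRNA and guide them to the start codon. Elongation factors (eEFs) then deliver each aminoacyl-tRNA to the ribosome and move it along the message. Cells control the process mainly at the cap, through proteins that bind eIF4E, and at eIF2, through kinases that phosphorylate it. In the tooth germ, ameloblasts and odontoblasts become strongly secretory as enamel and dentin matrix are laid down, and all their proteins pass through this machinery.

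Signals are MAS5 values in arbitrary units, scaled by the authors to the same trimmed mean on each array, and a probe set's level cannot be set against that of another. A fold is the ratio of the signals of 2 arrays, and a gene was called higher or lower where this passed 2-fold. No member's signal lay under the 25th percentile of its array (29.3 on E40, 17.2 on E50 and 21.8 on E60), below which signals were treated as a floor; the dimmest member signal was 288.3. Among the members with several probe sets, log2 folds of the same gene were compared where both signals of a probe set lay over the floor. They differed with a pooled SD of 0.39 for E50 against E40 (15 genes), 0.29 for E60 against E50 (15 genes) and 0.50 for E60 against E40 (16 genes). The comparisons with E50 leave out EIF3D, whose dimmer probe set was under the floor there. Such an SD includes both noise and what differs from probe to probe. The enamel and dentin markers AMBN, AMELX, ENAM and DSPP were all over 2-fold higher on E60 than on E40. On E40 AMELX, ENAM and DSPP were under the floor, so they do not show tooth identity for that pool. Of the other named tooth germ genes, BMP4 was higher on E60 than on E40 (2328.6, 3160.1 and 3893.1 by stage) and LEF1 lower (3511.9, 3209.8 and 2454.8). Of the 14 listed tooth germ genes, 7 had no probe set with a name of its own. MSX1, a transcription factor of the early germ, was lower on E50 than on E40 (1559, 737.1 and 1213.7 by stage). A marker list of skeletal muscle had 22 of 31 genes named on the array. Its summed signal was 48062 on the E40 array, against 1362 at E50 and 4266 at E60. The 21 genes measured on E50 versus E40 were all lower on E50. Most of the E60 sum came from MYL1 (7116.4, 481.2 and 3266.3 by stage). On E60 versus E50, MYL1, CHRNA1 and DES were over 2-fold higher and TNNI2 over 2-fold lower, beside 4.4% and 1.73% of all named genes. The median log2 fold of the 17 genes measured there was 0.06. Muscle uses translation factors too, so comparisons with E40 cover pools that differ in muscle RNA, and the part of this in the values below was not tested. In bulk tissue, fewer cells of a type and less RNA per cell cannot be told apart.

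The translation factor genes varied little between the stages, and EIF1AY alone passed 2-fold. On E50 versus E40, 0 of 42 members passed 2-fold in either direction, while 10.7% of all named genes did (2.71% higher and 7.98% lower), and 4.54% of the 4012 named genes at least as bright as the dimmest member. On E60 versus E50, 1 member was higher and 0 lower, beside 6.13% of all named genes called in either direction (4.4% higher and 1.73% lower) and 2.49% of those over the same brightness limit. On E60 versus E40, again 1 was higher and 0 lower, beside 11.6% (4.44% higher and 7.21% lower) and 5.98%. With the threshold at 1.5-fold, 1 of 42 members was past it on E50 versus E40 (26.3% of all named genes), 3 in the E60 to E50 ratio (17.8%) and 1 in the E60 to E40 ratio (27.7%). Among the named genes over the brightness limit these shares were 16.6%, 10.1% and 20.2%. On E60 versus E50, 1 of 42 members past 2-fold was near the 2.49% of those bright genes. The ratio of a member's highest to its lowest signal ran from 1.01 for EEF1B2 to 3.63 for EIF1AY, and the second widest was 1.68, in EIF2B3.

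**Figure D1:**
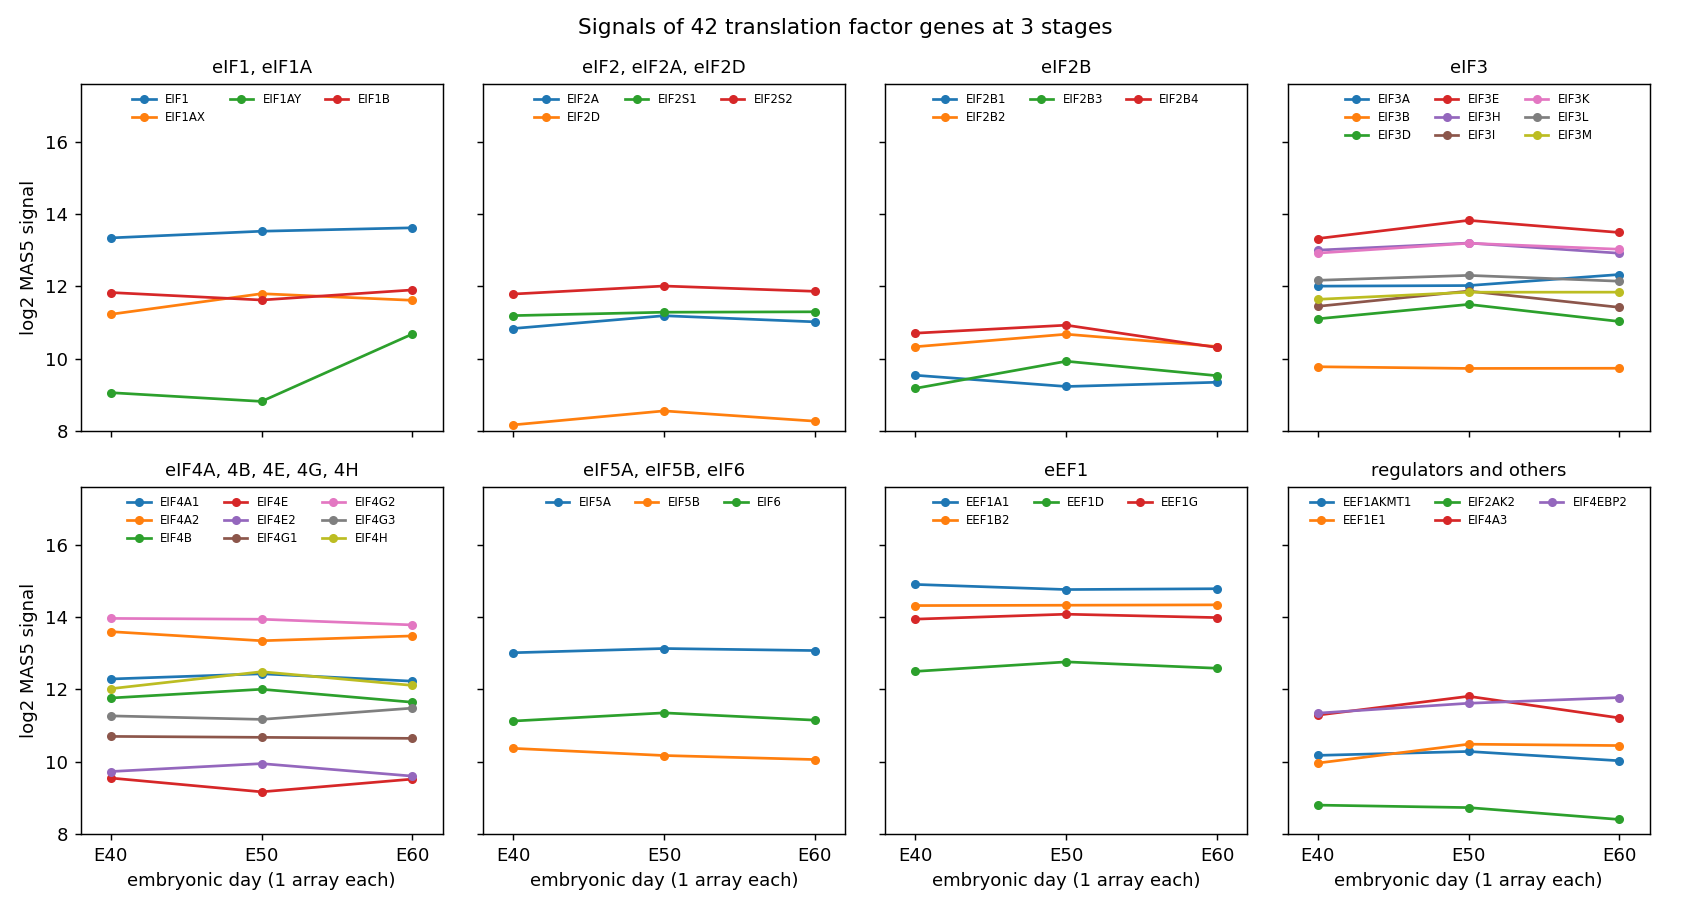
Log2 MAS5 signal (vertical axis) of each of the 42 translation factor genes by stage (horizontal axis, a single array per stage), in 8 panels by role, with a line for each gene drawn from its brightest probe set. The lines are nearly flat except for EIF1AY, which goes from 452.2 on E50 to 1643.2 on E60.

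What small differences there were ran mostly upward to E50 and back again. On E50 versus E40, 30 of 42 members lay above 0 (71.4%). The share was 53.1% of all named genes and 63.8% of those past the same brightness limit. The members' median log2 fold was 0.19, with a middle range (25th to 75th percentile) from -0.03 to 0.33. The median was 0.04 over all named genes and 0.13 over the named genes past the same brightness limit, so most of the offset was shared with other bright genes. On E60 versus E50, 28 of 42 members lay below 0, with a median of -0.16 beside -0.03 and -0.08. Above 0 were 33.3% of the members, 46.0% of all named genes and 39.7% of those past the brightness limit. On E60 versus E40 the median was 0.02, beside 0.00 and 0.05. There 23 members lay above 0 and 19 below. The share above 0 was 54.8% of the members, beside 49.5% and 54.9% in the same order.

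The sign of the last median turned with the scaling, to -0.05 after quantile normalization and -0.16 when the arrays were scaled to housekeeping genes, while equal array medians gave 0.33. Of the 10 housekeeping genes used, YWHAZ was itself over 2-fold lower on E60 versus E50 (1606.9, 2447.1 and 1091.6 by stage). The medians of the other 2 comparisons kept their sign under these scalings, at 0.58, 0.09 and 0.11 for E50 versus E40 and -0.24, -0.15 and -0.26 for E60 versus E50, with equal medians, quantile normalization and housekeeping genes in that order. The median of all probe sets stood at -0.15 on E50 versus E40 as deposited and at 0.24 with equal medians. With equal medians all 42 members lay above 0 on E50 versus E40, so that a member given below as lowest on E50 was lowest there as deposited and not under that scaling. Relative to the bright genes, the members stood 0.06 higher on E50 versus E40 as deposited and 0.03 lower (-0.03) after quantile normalization. On E60 versus E50 they stood at -0.08 relative to them, both as deposited and after quantile normalization. Equal medians and housekeeping genes shift all genes of an array alike, so these scalings could not alter such a difference. In all, 25 members were above 0 on E50 versus E40 under all 4 scalings, a count not made for the bright genes. Since equal medians put all 42 members above 0 there, none could be below 0 under all 4. Those whose sign turned were EEF1A1, EEF1B2, EIF1AY, EIF1B, EIF2AK2, EIF2B1, EIF2S1, EIF3A, EIF3B, EIF3L, EIF4A1, EIF4A2, EIF4E, EIF4G1, EIF4G2, EIF4G3 and EIF5B. On E60 versus E50, 28 were below 0 under all 4 and 8 above.

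**Figure D2:**
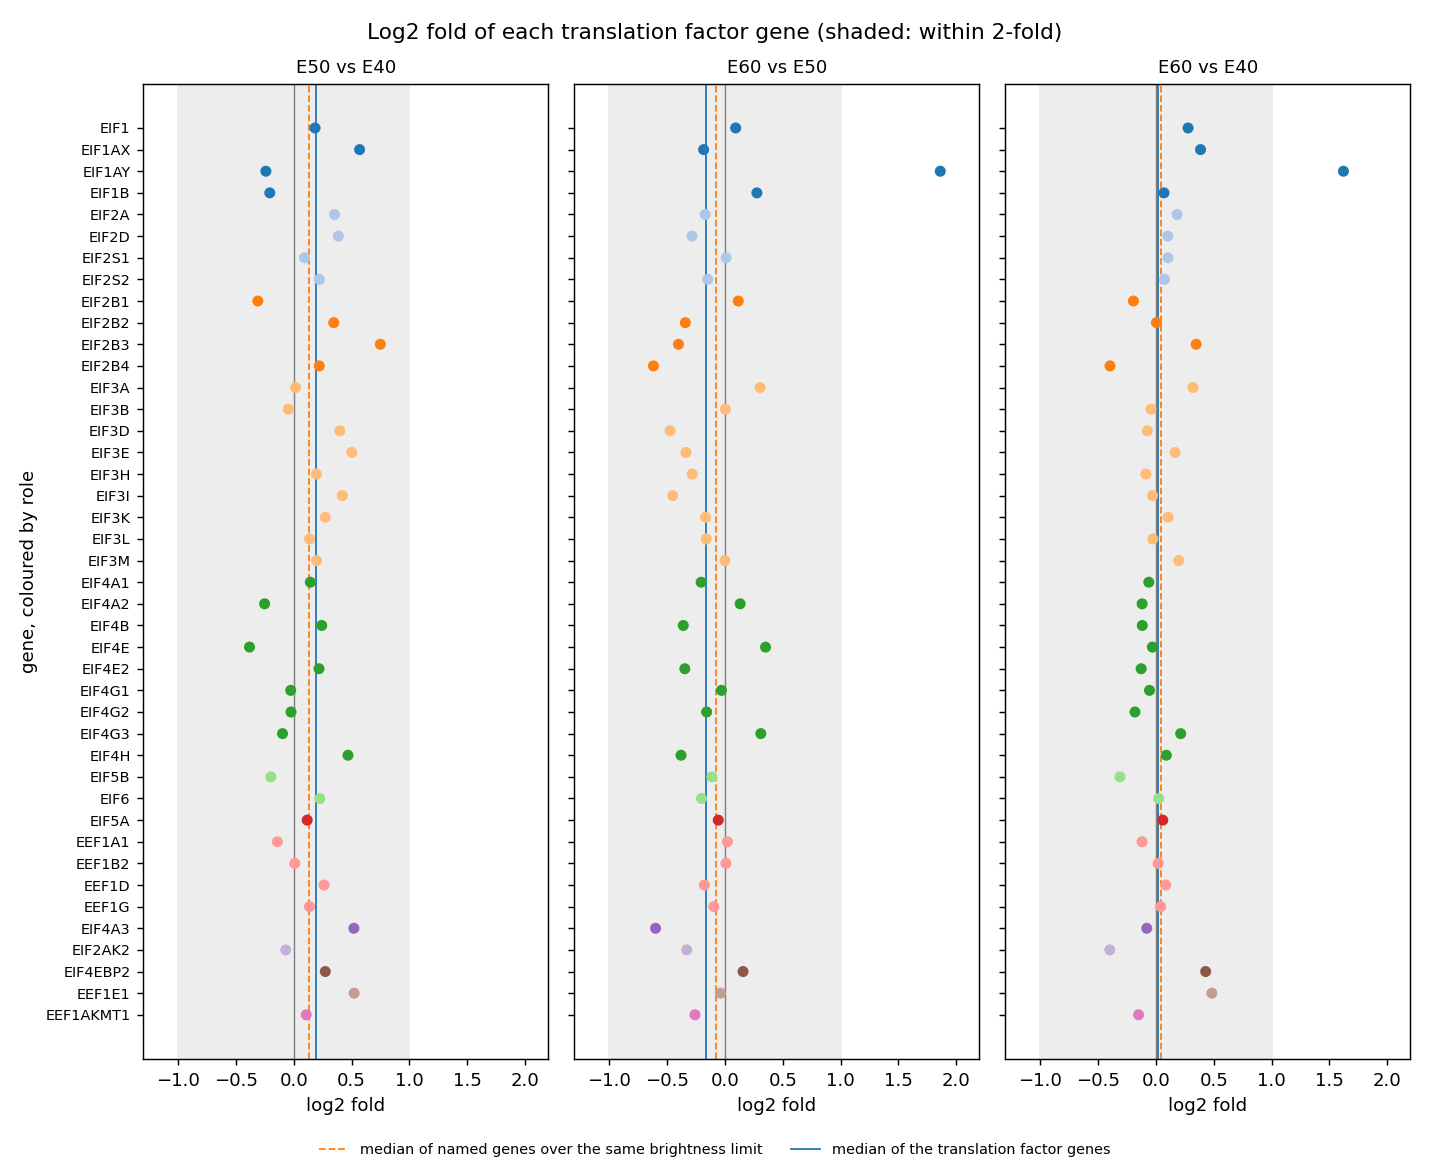
Log2 fold (horizontal axis) of each translation factor gene (vertical axis, coloured by role) in each pair of stages. The blue line is the median of the 42 genes, the dashed orange line that of the 4012 named genes over the same brightness limit, and the grey band marks changes within 2-fold. The 42 genes sit inside the band on E50 versus E40, and EIF1AY alone sits outside it in the other 2 pairs.

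The stage of the highest signal describes the same pattern gene by gene. E50 held the highest signal for 24 of 42 members (57.1%), against 42.5% of the named genes over the same brightness limit and 35.1% of the 6274 named genes with a signal over the floor. E40 and E60 held the highest signal for 9 members each. Of the 24, 22 were highest on E50 under all 4 scalings. The total was 33 with equal medians, 23 after quantile normalization and 27 with housekeeping genes, and the share among the bright genes was 63.8%, 41.8% and 43.3% in the same order. Cytosolic ribosomal protein genes, the structural partners of these factors, had their highest signal on E50 in 19 of 61 cases (31.1%). Cytosolic aminoacyl-tRNA synthetase genes had it there in 9 of 17 (52.9%). The shares of both lists are for the signals as deposited only, so how they change with the scaling is not shown.

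**Figure D3:**
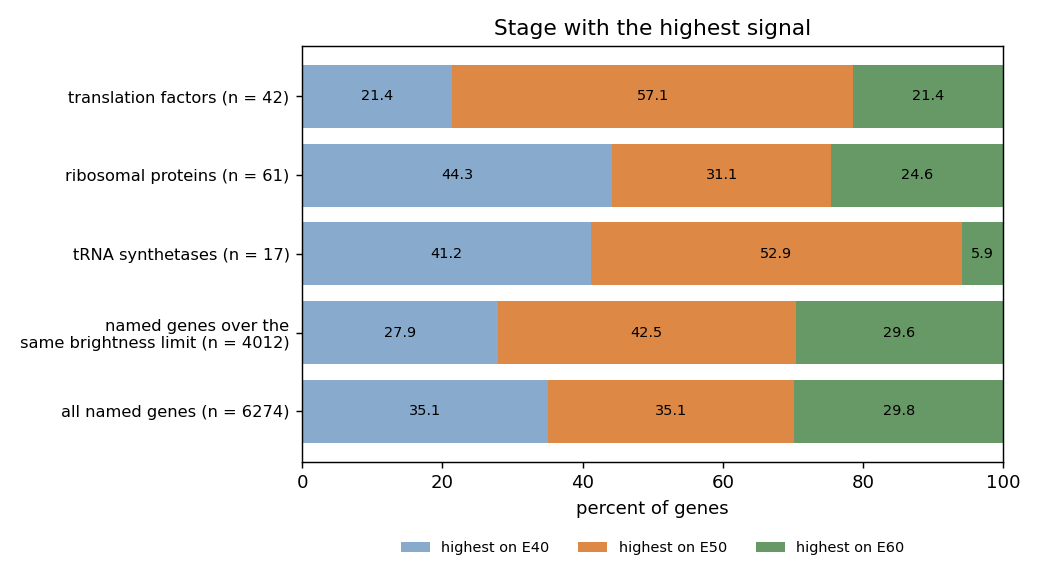
Percent of genes (horizontal axis) whose highest signal was on E40 (blue), E50 (orange) or E60 (green), for the translation factors, 2 related gene lists and 2 backgrounds (vertical axis, with the number of genes). E50 holds 57.1% of the translation factor genes and 42.5% of the named genes over the same brightness limit.

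EIF1AY encodes the Y-linked form of eIF1A, a small factor that helps the ribosome scan for the start codon. Its signal was 534.2 at E40, 452.2 at E50 and 1643.2 at E60. The E60 array was thus the high one, 3.63-fold above E50 and 3.08-fold above E40 as deposited, on the 1 probe set that carries the name. Over the 4 scalings the log2 fold ran from 1.76 to 1.86 against E50 and from 1.44 to 1.93 against E40. The X-linked form EIF1AX stood at 2397.6, 3556.6 and 3133.9, so that E50 exceeded E40 by 1.48-fold and E60 by 1.13-fold. A second EIF1AX probe set went the same way (1862.7, 2387.6 and 2124.4). The products of the X and Y copies are near-identical, and whether the EIF1AY probe set also reads EIF1AX transcripts was not tested. The sex of the pooled embryos is not given, so a different share of males in the E60 litter and a change of EIF1AY with stage cannot be told apart here.

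The other start-codon factors stayed within 1.5-fold. EIF1, which keeps the scanning ribosome from starting at the wrong codon, stood at 10353.8, 11764.9 and 12560.7. Its second probe set gave 3563.2, 4122.8 and 4306.5, also lowest on E40 and highest on E60. EIF1B, a close relative of EIF1, stood at 3636.5 at E40, 3151.4 at E50 and 3819.8 at E60, with E50 as its lowest array.

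Of eIF2, the GTP-binding factor that carries the initiator tRNA, the alpha and beta subunits were measured, while EIF2S3, the gamma subunit that binds GTP, has no probe set of its own and was not analysed here. EIF2S1, the alpha subunit that stress kinases phosphorylate, stood at 2337.4 at E40, 2494.1 at E50 and 2514.5 at E60. EIF2S2, the beta subunit, stood at 3533.1, 4119.9 and 3722.2. EIF2A and EIF2D, which can deliver tRNA to the ribosome without eIF2, stood at 1825.9, 2332.2 and 2074.5 and at 288.3, 376.8 and 309.8, so each was highest on E50.

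The exchange factor eIF2B, which reloads eIF2 with GTP, held the widest differences after EIF1AY. EIF2B3, which encodes the gamma subunit of the catalytic part, stood at 580.6 at E40, 975.4 at E50 and 739.4 at E60. This is 1.68-fold higher on E50 than on E40, the widest upward difference of a member in that comparison, and its log2 fold of 0.75 became 1.14, past 2-fold, with equal array medians. EIF2B4, the delta subunit, stood at 1670.2, 1946 and 1269.7, and was 1.53-fold lower on E60 than on E50, the widest downward difference in that comparison. EIF2B2, the beta subunit, stood at 1288.1, 1637.1 and 1293.1. EIF2B1, the alpha subunit, differed from these in having E50 as its lowest array (745.7, 601.5 and 652.2), and its dimmer probe set was lowest on E60 instead (104.7, 96.6 and 56.4). The median log2 fold of the 4 genes was 0.28 for E50 against E40 and -0.37 for E60 against E50.

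Of 9 genes of eIF3, the large scaffold that binds the small subunit, 6 were highest on E50 and 8 lay above 0 on E50 versus E40. EIF3E had the largest fold among them and stood at 10229.7 at E40, 14487.8 at E50 and 11483.4 at E60, or 1.42-fold higher on E50 than on E40. EIF3I stood at 2792.9, 3737.9 and 2738.6. EIF3D, whose product can itself bind the cap of some mRNAs, stood at 2198.1, 2897.5 and 2089.1. For both EIF3I and EIF3D, E40 and E60 were nearly level and E50 stood at least 1.32-fold above either.

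EIF3H (8189.1, 9380.1 and 7720.3), EIF3K (7739.1, 9347.5 and 8331.5) and EIF3L (4596.7, 5050 and 4517.6) were also highest on E50, by smaller margins. EIF3A, the largest core subunit, was level on E40 and E50 (4109.9 and 4156.2) and highest on E60 (5134.2), 1.24-fold above E50. EIF3B, another core subunit, was the flattest of the complex at 877.9, 849.9 and 852.9, and EIF3M stood at 3192.7, 3659.5 and 3662.6. The 9 genes had a median of 0.20 for E50 against E40, -0.17 for E60 against E50 and -0.03 for E60 against E40.

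The cap-binding factors differed in sign among themselves. EIF4E, which binds the mRNA cap, had E50 as its lowest array, at 751 (E40), 576.5 (E50) and 736 (E60), which was the widest downward difference of a member on E50 versus E40 (1.30-fold). EIF4E2, a cap-binding relative that represses rather than starts translation, had E50 as its highest array (850.8, 990 and 779.4) on its brightest probe set. The suffix of that probe set marks a match shared by several transcripts of the same gene. The other 2 probe sets of EIF4E2 were highest on E40 instead (216.9, 163.8 and 124.2, and 190.4, 127.4 and 111.5), so its direction on E50 versus E40 is not settled.

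The scaffolds EIF4G1 and EIF4G2 were nearly flat, at 1667, 1637.4 and 1605.3 and at 15971.9, 15718.8 and 14100.7. EIF4G3 stood at 2469.4, 2309.2 and 2865.9, with E60 exceeding E50 by 1.24-fold. As deposited, the helicase gene EIF4A1 was highest on E50 (5006, 5529.5 and 4800.6) and its relative EIF4A2 lowest there (12393.2, 10411.4 and 11417.9). On E50 versus E40 both lay above 0 with equal array medians (0.53 and 0.14) and both below 0 after quantile normalization (-0.04 and -0.32), so a difference in sign between them is not settled. The helicase cofactors EIF4B and EIF4H were both highest on E50 on their brightest probe sets, at 3478, 4112.1 and 3208 and at 4157.2, 5753.2 and 4427.9. The second EIF4B probe set was highest on E60 instead, at 2065.8, 2615.6 and 2881.7. Over the 9 genes the median was -0.02 for E50 against E40, -0.16 for E60 against E50 and -0.06 for E60 against E40.

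The factors that join the subunits, and eIF5A, gave small values. EIF5B, the GTPase of subunit joining, stood at 1326.2, 1156.3 and 1070.3, with E40 as the highest array, a 1.24-fold difference between E40 and E60. A second EIF5B probe set was highest on E60 (230.4, 193.5 and 266.6), so its direction on E60 versus E40 is not settled, and the dimmest, at 20.4, 33.9 and 27.7, was under the floor on E40. EIF6, which keeps the large subunit from joining too early, stood at 2237.4, 2616.1 and 2275.8. EIF5A, which helps the ribosome through difficult peptide bonds, stood at 8276.7, 8973 and 8630.8. Its second probe set gave a wider difference on E50 versus E40, at 2901.1, 4777.9 and 4229.9.

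The elongation factor genes differed by at most 1.20-fold between arrays. EEF1B2, a subunit of the exchange factor of eEF1A, stood at 20422.6 at E40, 20558.3 at E50 and 20707 at E60. EEF1G, its gamma subunit, stood at 15751.6, 17311.1 and 16221.3, and EEF1D, the delta subunit, at 5791.8, 6946.5 and 6147.9. EEF1A1, which brings aminoacyl-tRNA to the ribosome, stood at 30611, 27760.7 and 28196.4 on a probe set that the array carries as a control. Its 3 other probe sets differed by at most 1.25-fold between arrays, and the brightest of them was highest on E50 (1254.8, 1476.5 and 1181.1). Of the muscle form EEF1A2 and of EEF2, which moves the ribosome along, no probe set has a name of its own, and both were not analysed here. The same holds for EIF5, EIF2B5, EIF4EBP1, EEF2K and the eIF2 kinases EIF2AK1, EIF2AK3 and EIF2AK4, among 22 genes of the pattern in the RefSeq gene table without such a probe set.

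Members outside the factors proper included 2 of the wider differences. EIF4A3, a relative of the eIF4A helicases that works in the exon junction complex on spliced mRNA, stood at 2506.2, 3593.4 and 2374.6, so that E50 exceeded E40 by 1.43-fold and E60 by 1.51-fold. EEF1E1, a subunit of the aminoacyl-tRNA synthetase complex, stood at 1000.4, 1436.2 and 1399.1, with E40 as the low array. Its dimmer probe set had E40 as the low array too but E60 as the high one (218.6, 296.9 and 446.1). EEF1AKMT1, which methylates eEF1A, stood at 1159, 1249.4 and 1045.5.

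The regulators present were EIF4EBP2, which sequesters eIF4E, and EIF2AK2, the kinase PKR that phosphorylates eIF2 in response to double-stranded RNA. EIF4EBP2 stood at 2602.6 at E40, 3144.6 at E50 and 3508.4 at E60, and its 5 probe sets were all highest on E60. EIF2AK2 is known as an interferon-induced gene, but it stood at 447.2, 426.4 and 339.6, highest on E40 as deposited, while with equal array medians and after quantile normalization its highest array was E50, with a log2 fold over E40 of 0.32 and 0.08. The interferon list had a summed signal of 2601, 5702 and 2554. On E50 versus E40, 8 of its 15 measured genes were over 2-fold higher, beside 2.71% of all named genes. Of these 8, ISG15 stood at 113.5, 719.5 and 122.1 and DDX58 at 78, 571.4 and 250.5. DDX58 was the 1 gene of the list over 2-fold higher on E60 than on E40 (3.21-fold), beside 4.44% of all named genes. EIF2AK2 was lowest on E60 as deposited and had the widest downward difference of a member on E60 versus E40 (1.32-fold), with the same sign under all 4 scalings.

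Several members were measured by more than 1 probe set, and these did not always go the same way. Of 16 such genes, all probe sets had the same sign in 9 for E50 against E40, in 9 for E60 against E50 and in 12 for E60 against E40. Wide disagreements on E50 versus E40 were in EIF3D and EIF4H. The dimmer EIF3D probe set stood at 99.9, 15.1 and 25.8, at least 5.80-fold lower on E50, where it was under the floor, than on E40, opposite to the brightest one. The dimmer EIF4H probe set stood at 160.8, 54.4 and 45.9, 2.95-fold lower on E50 than on E40. For these genes the E50 peak therefore rests on the brightest probe set alone. EIF2A was higher on E50 than on E40 on both of its probe sets, the dimmer of which stood at 51.9, 95 and 122.4.

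**Figure D4:**
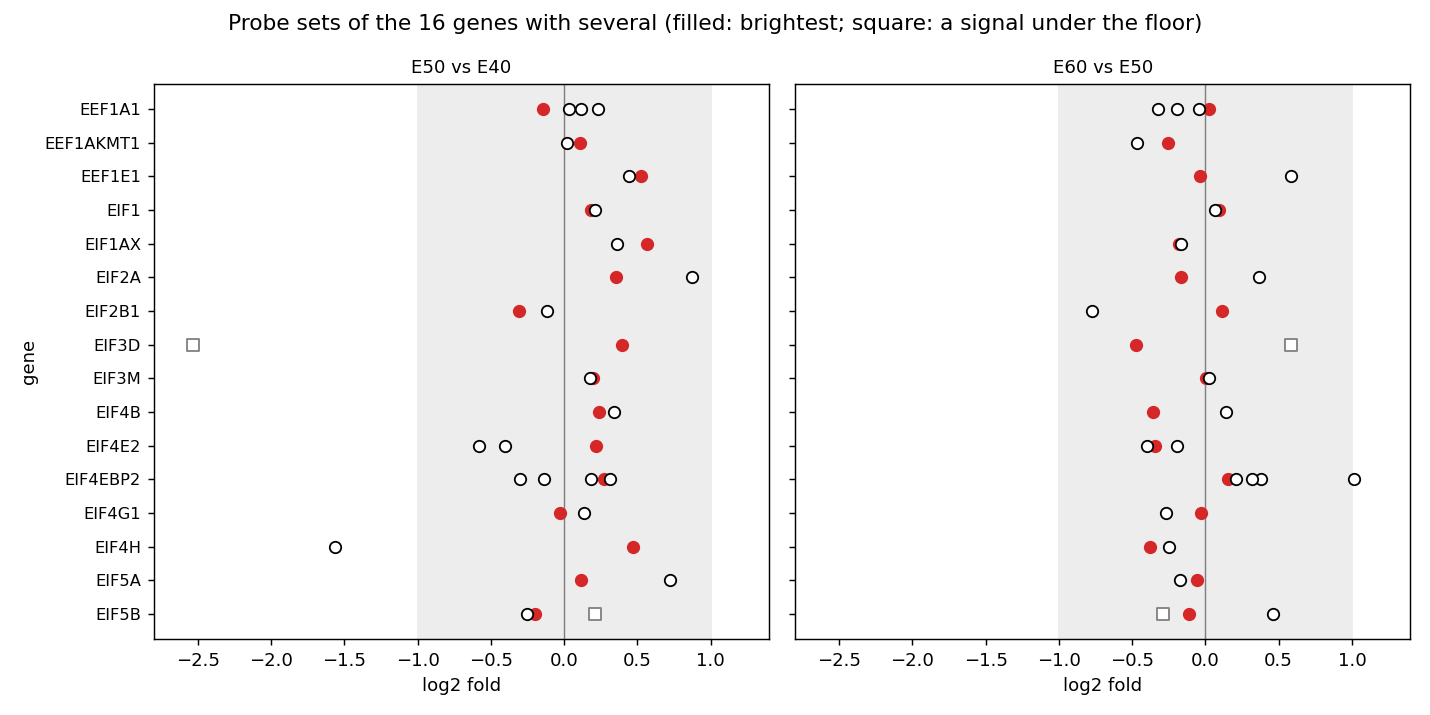
Log2 fold (horizontal axis) of every probe set of the 16 translation factor genes with several (vertical axis), for E50 against E40 and for E60 against E50. Filled points are the brightest probe set, open points the others, squares have a signal under the floor, and the grey band marks changes within 2-fold. On E50 versus E40 a dimmer probe set of EIF3D and of EIF4H lies outside the band on the lower side.

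Other genes of the translation machinery mostly stayed within 2-fold. Of 17 named aminoacyl-tRNA synthetase and scaffold genes, 0 passed 2-fold in any pair, with medians of 0.10 for E50 against E40, -0.16 for E60 against E50 and -0.20 for E60 against E40. Of a list of 17 poly(A) binding, release and other translation factors, 5 were named on the array, namely PABPC1, PABPC4, PAIP1, DAP and TPT1. None of these 5 is a release factor, so release factors were not measured. Of the 5, 0 passed 2-fold, and the widest fold was 1.80, in DAP (E60 against E40). PABPC1, which binds the poly(A) tail and eIF4G, stood at 19248.8, 17084.1 and 17485.2. Of 6 mitochondrial translation factors, 0 passed 2-fold, and TUFM, the mitochondrial counterpart of eEF1A, stood at 1222.8, 1193.5 and 1366.9. Among 61 measured cytosolic ribosomal protein genes the medians were -0.02, 0.01 and -0.03. Of the 61, 3 (RPL26, RPL30 and RPL37) were over 2-fold lower on E50 than on E40, beside 7.98% of all named genes. RPL30 stood at 143.5, 17.7 and 85.9 and was higher again on E60 than on E50. Its E50 signal lay close to the floor of 17.2, so both of these differences rest on a value near the floor.

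Among genes of the pathways that act on these factors, or that are induced after phosphorylation of eIF2, 3 passed 2-fold in some pair. A list of kinase signalling to translation had 7 named genes, namely RHEB, TSC1, TSC2 and AKT1S1 of the mTORC1 pathway, which frees eIF4E from its binding proteins, and RPS6KA1, RPS6KA3 and MKNK1, which act downstream of ERK. Of these, TSC2, an inhibitor of mTORC1, passed 2-fold. It stood at 416.5, 359.3 and 191.1, and was 2.18-fold lower on E60 than on E40, where 7.21% of all named genes were called lower. Of 12 named genes induced after phosphorylation of eIF2, 2 were over 2-fold higher on E50 than on E40, beside 2.71% of all named genes. They were VLDLR, a lipoprotein receptor, and PHGDH, the first enzyme of serine synthesis. VLDLR stood at 980.8, 2216.7 and 2459.5 and PHGDH at 507.3, 1304.2 and 706.1. On E60 versus E40, VLDLR was 2.51-fold higher, where 4.44% of all named genes were called higher. The central transcription factor of that response, ATF4, stood at 5001.6, 4232.9 and 4567.5, and DDIT3 at 205.4, 193.5 and 222.4. The median of the 12 was -0.08 for E50 against E40 and 0.23 for E60 against E40. Both lists were chosen with results of these arrays known, so their counts are descriptions.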

How the data were processed

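RNA of 3 pools of tooth germs was hybridised to Affymetrix Porcine Genome Arrays, 1 array per stage. The authors computed MAS5 signals and deposited their log2 values for 24123 probe sets, 124 of them array controls, and these values were used without further normalization. An array's precision is limited by the number of arrays, and no replicate spread could be had. The platform table gives 1 symbol to 10099 probe sets, several to 198 and none to 13826. The RefSeq gene table holds 64 genes of the pattern, of which 42 have a probe set of their own and 22 do not. Signals under the 25th percentile of their array were raised to it, and genes with both signals under it were left out of a comparison. Calls were made at 2-fold, and no test was run. All members are named with their signals. Of the other lists, genes past 2-fold are named where a comparison had at most 5, and a few central genes were named after their values were seen. Members and lists were chosen with earlier results of these data known. The calculation (Python 3.11.15, numpy 2.4.6, pandas 2.3.3) was tested on simulated data. Results were recomputed under 11 other settings of floor, scaling, threshold, probe set and gene choice, and under 2 chosen after seeing the data, which left out array control probe sets or EIF1AY.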

Additional observations from a re-analysis of the deposited data

How the results depend on the processing

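No paired analysis was possible because each stage has 1 array, and for the same reason no replicate could be left out. Of 166 comparisons of a count or median with its alternative, 156 stayed within the limits used (counts within 1.5-fold, medians within 1.2-fold) and 10 did not. With equal array medians, 1 member (EIF2B3) was past 2-fold higher on E50 versus E40, the median log2 fold was 0.58 there and 0.33 on E60 versus E40, and 0 members were lowest on E50. With a 1.5-fold threshold, 1 member was higher on E50 versus E40, and in the E60 to E50 ratio 2 were lower. When a gene's probe sets were averaged, 1 member (EIF3D) was lower on E50 versus E40 (-1.16) and 1, again EIF3D, on E60 versus E40 (-1.01). Without EIF1AY, left out after its values were seen, 0 members were higher on E60 versus E50 or on E60 versus E40. Of single genes, 7 values moved by over 1.5-fold and 1361 did not. They were those of EIF3D (also 0.15 on E60 versus E50) and EIF4H (-0.55 for E50 against E40 and -0.86 for E60 against E40) with the mean over probe sets, and EIF4E2 (-0.40 and -0.80) without shared-match probe sets. Signs of single genes turned in 34 of 126 values with equal medians, 21 with housekeeping genes, 17 with quantile normalization, 15 with the mean over probe sets, 2 without array control probe sets and 1 without shared-match probe sets. None could turn under the 3 alternatives to the floor, since the dimmest member signal, 288.3, lay above the highest floor used, 163.5. Leaving out EIF1AY or the members outside the factors proper could not change another gene's value either. The 1361 unmoved values, and the 156 above, therefore include many that were fixed in advance.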

Other observations

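Another 6 probe sets carry a symbol of the same pattern together with that of a second gene and were left out, since the table does not say which gene they read. Of these, 2 are annotated to EIF2S3 jointly with a locus without a name. They differed in direction on E60, where the first stood at 716.7 (E40), 747.2 (E50) and 1493 (E60), and the second at 2440.1, 2787.3 and 1516.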
